A study of Bos taurus with 6 samples.

Results

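Messenger RNA of 7 small heat shock proteins and of the co-chaperone BAG3 was examined in cultured bovine ovarian stromal fibroblasts, in 3 samples of cells from ovarian tumor and 3 samples from normal ovary. The 8 genes, CRYAB, HSPB1, HSPB2, HSPB3, HSPB6, HSPB7, HSPB8 and BAG3, were taken by gene symbol from 18010 genes measured by microarray. Where a gene has several probe sets, its row was to be chosen by the highest mean level of all 6 samples, tumor and normal together. All 8 genes had only 1 probe set, so this choice left out none, and it did not use the difference between the groups. All samples were grown in the same medium without a specific treatment. The labels name neither the type of tumor nor the animals, so whether the 3 samples of a group came from separate animals or cultures is unknown. The p-values therefore refer to the scatter of these 6 samples alone, part or all of which may be technical.

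Small heat shock proteins are chaperones that hold unfolding proteins in oligomers until the HSP70 machinery refolds them or hands them over for degradation. Several of them are most abundant in muscle and lens, where they bind intermediate filaments and actin. BAG3 joins HSP70 to HSPB8 and, in muscle and other cells under mechanical load, directs damaged filamins to autophagy. The heat shock factor HSF1 induces several of these genes after heat, while others are set mainly by cell type.

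CRYAB, HSPB6 and HSPB8 rose in tumor cells, by 4.75-fold, 4.34-fold and 2.20-fold, and the other 5 genes did not pass the test. HSPB1 and BAG3, both well above background in each sample, differed by 1.07-fold and 1.14-fold. These 3 genes of 8 passed an adjusted p of 0.05, all higher in tumor cells, in limma fitted over all genes with Benjamini-Hochberg adjustment. In the same fit 18.0% of all genes passed in either direction and 8.56% passed as higher in tumor cells. In bulk cultures a change in the number of cells of a type cannot be told apart from a change in RNA per cell. The 8 genes were listed with earlier results of these data known, so their share is a description. Their median log2 difference, tumor minus normal, was 0.24, against 0.02 over all genes.

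CRYAB encodes alpha B-crystallin, a chaperone of lens and muscle that binds desmin and other filaments. Its log2 expression was 8.10, 8.12 and 8.41 in the tumor samples and 5.43, 6.11 and 6.35 in the normal samples. The lowest tumor sample thus lay well above the highest normal sample, and the normal samples were spread more widely than the tumor samples. The means were 8.21 ± 0.17 in tumor cells and 5.96 ± 0.48 in normal cells (SD, n = 3 each). The log2 difference was 2.25 ± 0.23 (SE; 95% interval 1.71 to 2.78), with an adjusted p of 0.00089 in limma.

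HSPB6, also called HSP20, is known from smooth muscle, where cyclic nucleotide-dependent kinases phosphorylate it during relaxation. Its values were 9.16, 8.69 and 8.52 in the tumor samples, against 6.96, 6.78 and 6.28 in the normal samples. Again the groups did not overlap, and here both groups had a similar spread. The group means were 8.79 ± 0.33 in tumor cells and 6.67 ± 0.35 in normal cells (SD, n = 3 each). HSPB6 rose by 2.12 ± 0.22 on the log2 scale (SE; 95% interval 1.60 to 2.63; adjusted p = 0.000945 in limma).

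HSPB8 is the small heat shock protein that forms a complex with BAG3. It stood at 5.74, 5.91 and 6.25 in tumor samples and at 4.49, 4.96 and 5.04 in normal samples. All tumor samples were higher than all normal samples, by a smaller step than for CRYAB and HSPB6. Its means were 5.97 ± 0.26 in tumor cells and 4.83 ± 0.30 in normal cells (SD, n = 3 each), a log2 difference of 1.14 ± 0.19 (SE; 95% interval 0.70 to 1.58; adjusted p = 0.00667 in limma). In the whole array, groups without overlap were found for 35.7% of genes, and 17.6% had all tumor samples above all normal samples. CRYAB, HSPB6 and HSPB8 were the 3 of the 8 genes in that second class. At least a 2-fold difference was seen in 7.00% of all genes and in the same 3 members.

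**Figure D1:**
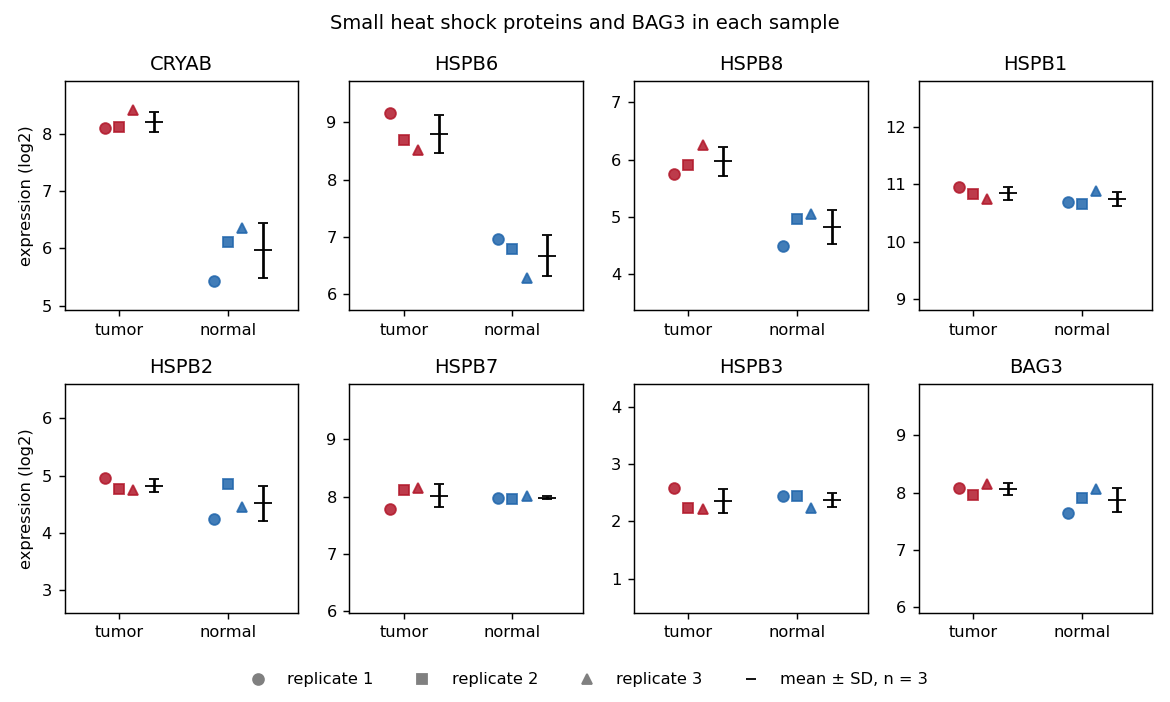
Log2 expression of each gene in the 3 tumor samples (red) and the 3 normal samples (blue), with the mean ± SD of each group in black; every panel spans 4 log2 units. CRYAB, HSPB6 and HSPB8 have all tumor samples above all normal samples, and in the other 5 panels the groups overlap.

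HSPB1, or HSP27, is a widely expressed small heat shock protein whose oligomers come apart when the kinase MK2 phosphorylates them. Its values were 10.96, 10.84 and 10.74 in tumor samples and 10.70, 10.65 and 10.88 in normal samples. The groups overlapped, and all 6 values lay within 0.31 log2 units. The log2 difference was 0.10 ± 0.12 (SE; adjusted p = 0.637 in limma), and its 95% interval ran from -0.18 to 0.38. A 2-fold difference in either direction lies outside that interval.

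BAG3 is the nucleotide exchange factor and scaffold that links HSP70 with HSPB8. It was measured at 8.07, 7.95 and 8.15 in tumor samples and at 7.65, 7.91 and 8.06 in normal samples. Normal sample 3 reached the level of the tumor samples. The log2 difference was 0.18 ± 0.14 (SE; 95% interval -0.14 to 0.50; adjusted p = 0.435 in limma), so a 2-fold difference lies outside the interval here too.

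HSPB2 and HSPB3 are known from striated muscle, where they form a complex with each other. HSPB2 had values of 4.96, 4.77 and 4.75 in tumor samples and 4.25, 4.85 and 4.46 in normal samples. Normal sample 2 fell among the tumor samples, and the log2 difference of 0.31 ± 0.17 did not pass (SE; 95% interval -0.08 to 0.69; adjusted p = 0.269 in limma). With array weights, which give most weight to normal sample 2, the difference was 0.07, and without normal replicate 2 it was 0.47 (adjusted p = 0.0986). Without normal replicate 1 it was 0.17. HSPB3 stood at 2.59, 2.24 and 2.22 in tumor samples and at 2.44, 2.44 and 2.24 in normal samples. Both group means lay under 3.54, the level below which 95% of the group means of 717 olfactory receptor probe sets fell. Fibroblasts are not known to use these receptors, so this level served as a guide to background, and HSPB3 was the only one of the 8 genes under it in either group. Its log2 difference was -0.02 ± 0.14 (SE; adjusted p = 0.934 in limma), a difference between values at background level.

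HSPB7 is a small heat shock protein best known from heart, and it was measured well above that background level. It had 7.79, 8.11 and 8.15 in tumor samples and 7.97, 7.96 and 8.01 in normal samples. The normal samples lay inside the range of the tumor samples. The log2 difference was 0.04 ± 0.13 (SE; 95% interval -0.26 to 0.34; adjusted p = 0.888 in limma).

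**Figure D2:**
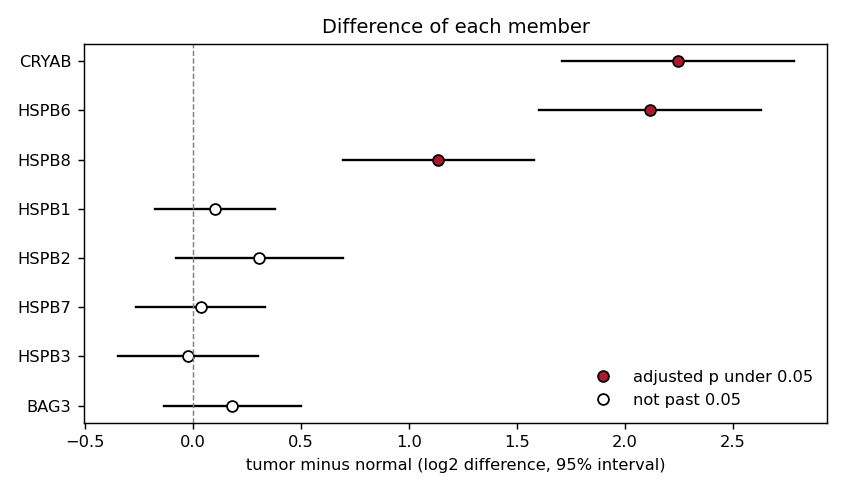
Log2 difference, tumor minus normal, of each gene (points) with its 95% interval from limma (lines); filled points passed an adjusted p of 0.05. The intervals of CRYAB, HSPB6 and HSPB8 lie above 0, from 0.70 upward, and those of the other 5 genes include 0.

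Some of these genes have known partners, and the differences within such pairs were compared directly. CRYAB and HSPB2 are neighbours that are transcribed away from each other in human and mouse, and in the bovine reference table HSPB2 also follows CRYAB directly. In each sample the value of HSPB2 was subtracted from that of CRYAB. The result was 3.14, 3.35 and 3.66 in tumor samples and 1.18, 1.26 and 1.89 in normal samples. The log2 difference of CRYAB between the groups thus exceeded that of HSPB2 by 1.94, with no overlap between groups. An exact two-sided permutation test over the 6 samples gave p = 0.1, the smallest p this test can give with 3 samples against 3, so it cannot reach 0.05 here.

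The same comparison was made for HSPB8 and its partner BAG3. HSPB8 minus BAG3 was -2.33, -2.04 and -1.90 in tumor samples and -3.16, -2.95 and -3.02 in normal samples. The groups did not overlap, and the log2 difference of HSPB8 exceeded that of BAG3 by 0.95 (exact two-sided permutation p = 0.1, again the smallest possible). Adjusted over these 2 pairs both p-values were 0.1, and both pairs were chosen after the values were known.

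Neighbouring genes of the 3 higher members on the chromosomes were also examined. Of all genes 8.56% rose and 9.44% fell in limma. Within 3 measured genes on either side of CRYAB, HSPB2 not counted, 1 of 5 rose and 1 fell. These were SIK2, a salt-inducible kinase (log2 difference 1.18 ± 0.14, SE), and PPP2R1B, a subunit of protein phosphatase 2A (-0.67 ± 0.10). Of these 5 genes, 3 had an unadjusted p under 0.05, as did 30.9% of all genes. Of the 6 measured genes nearest to HSPB6, 0 passed in limma and 1 had an unadjusted p under 0.05, with log2 differences from -0.47 to 0.07. Of the 6 nearest to HSPB8, 0 passed and 3 had an unadjusted p under 0.05, with differences from -0.27 to 0.47.

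Within the groups, CRYAB and HSPB8 ran together and HSPB6 ran the other way. Among tumor samples, CRYAB and HSPB8 were highest in tumor 3 and lowest in tumor 1, while HSPB6 was highest in tumor 1 and lowest in tumor 3. CRYAB differed between tumor 1 and tumor 2 by only 0.02. Among normal samples, CRYAB and HSPB8 were highest in normal 3 and lowest in normal 1, while HSPB6 was highest in normal 1 and lowest in normal 3. With 3 samples a group this order is a description and was not tested. HSPB6 thus rose in the same comparison without sharing the sample order of CRYAB and HSPB8.

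**Figure D3:**
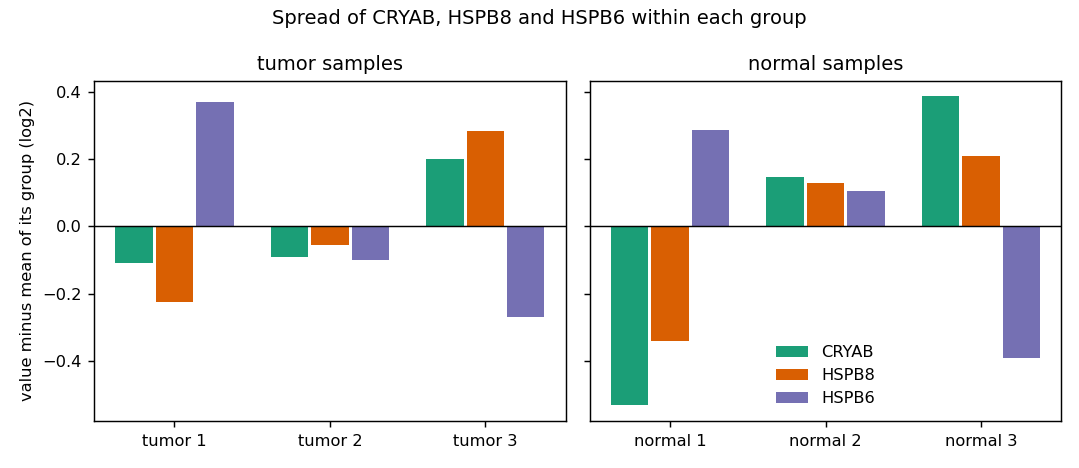
Log2 value of each sample minus the mean of its group, for CRYAB, HSPB8 and HSPB6, in tumor samples (left) and normal samples (right). In both groups the bars of CRYAB and HSPB8 point the same way in every sample, and the bar of HSPB6 points the other way in tumor 1, tumor 3, normal 1 and normal 3.

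For the 3 higher genes, the closest profiles over the 6 samples were sought among all other genes. Each gene's values were centred on their own mean, and closeness was the root mean square difference over the 6 samples. The samples form 2 groups, so closeness mostly reflects a like difference between the groups. Closest to CRYAB was HSD3B1, a steroid dehydrogenase with near-identical copies and therefore uncertain (0.14 log2 units), followed by the receptor tyrosine phosphatases PTPRK (0.20) and PTPRM (0.22). HSD3B1 stood at 9.30, 9.65 and 9.53 in tumor samples and at 6.84, 7.52 and 7.57 in normal samples, with normal 1 lowest as in CRYAB. HSPB6 lay closest to SUSD4, a membrane protein that regulates complement (0.13), PFKFB3, a regulator of glycolysis (0.14), and RGS4, a regulator of G protein signaling (0.18). PFKFB3 had 8.28, 7.96 and 7.80 in tumor samples and 6.28, 5.74 and 5.26 in normal samples, the order of samples seen for HSPB6. Nearest to HSPB8 were EPAS1, which encodes the hypoxia-inducible factor HIF-2 alpha (0.10), NUPR2 (0.10) and METRNL, a secreted protein (0.12). EPAS1 was at 10.18, 10.44 and 10.54 in tumor samples and at 9.04, 9.52 and 9.45 in normal samples. By the same measure CRYAB and HSPB6 lay 0.54 apart, CRYAB and HSPB8 0.57, and HSPB6 and HSPB8 0.69, so none of the 3 was among the nearest genes of another.

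Outside the 8 genes, no listed heat shock factor or heat-inducible chaperone that was measured passed as higher in tumor cells. Of 5 genes of the heat shock factors and their repressor, 1 fell and 0 rose in limma, where 9.44% of all genes fell. HSF1, the factor that drives the response to heat, had 7.42, 7.38 and 7.47 in tumor samples and 7.78, 8.17 and 8.04 in normal samples. Its log2 difference was -0.57 ± 0.13 (SE; adjusted p = 0.0212 in limma). The call was lost without tumor replicate 1 or 2 or normal replicate 2 or 3 (adjusted p = 0.0553 to 0.0831). HSF2, a second factor, differed by 0.08 ± 0.14 (adjusted p = 0.783).

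Of 18 genes listed as heat-inducible targets of HSF1, without the 8 genes, 12 had a probe set of their own. Of these 12, 4 fell and 0 rose, against 9.44% and 8.56% of all genes. Their median log2 difference was -0.46, against 0.02 over all genes. HSPA6 and HSPA1L, 2 of the 12, lay under the olfactory receptor level in both groups. CHORDC1, an HSP90 co-chaperone, was at 6.69, 7.09 and 7.28 in tumor samples and at 8.06, 8.31 and 8.65 in normal samples (log2 difference -1.32 ± 0.20, adjusted p = 0.00452 in limma). HSPH1, which encodes HSP110, had 7.12, 7.77 and 8.0 in tumor samples and 8.63, 8.59 and 8.94 in normal samples (-1.09 ± 0.23, adjusted p = 0.015). In both genes every tumor sample lay below every normal sample. HSPA4 (-0.80 ± 0.17), a relative of HSPH1, and CACYBP (-0.68 ± 0.16), a binding partner of the ubiquitin ligase component SIAH1, also fell. Both lost their call without tumor replicate 1, tumor replicate 2 or normal replicate 2, and CACYBP also without normal replicate 3 (adjusted p = 0.0566 to 0.0805). This left 2 targets that fell without any 1 of the first 3 of these samples, and 3 without normal replicate 3. Other settings gave more: 5 fell without normal replicate 1 or with the olfactory receptor filter, and 6 with array weights or the replicate block. DNAJB1, the HSP40 that is typically induced by heat, differed by 0.26 ± 0.13 (adjusted p = 0.24). HSPA1A and HSP90AA1, the inducible HSP70 and HSP90 genes, shared a probe set with another annotated gene and were not analysed here. DNAJA1, HSPD1, STIP1 and UBB, also listed, were not measured on a probe set of their own either.

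Other small heat shock proteins and other BAG proteins were not called in either direction in limma, apart from 1 small heat shock protein called higher with array weights. Of 3 other small heat shock proteins measured, CRYAA, HSPB9 and ODF1, 0 passed at the adjusted threshold and 1, CRYAA, had an unadjusted p under 0.05, against 30.9% of all genes. CRYAA, the lens partner of CRYAB, was at 4.08, 3.70 and 3.82 in tumor samples and 3.39, 3.16 and 3.59 in normal samples, and differed by 0.49 ± 0.16 (adjusted p = 0.069). CRYAA and HSPB9 had all tumor samples above all normal samples, as did 17.6% of all genes. Their normal means, and both means of ODF1, lay under the olfactory receptor level, so these differences are between values at or near background. Of 5 other BAG proteins, BAG1, BAG2, BAG4, BAG5 and BAG6, 0 passed and 2 had an unadjusted p under 0.05, with log2 differences from -0.26 to 0.26.

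Partners of BAG3 in chaperone-assisted autophagy showed no called difference, apart from 1 called higher with array weights. Of 14 listed, 12 had a probe set, and of these 0 passed in limma, against 18.0% of all genes. An unadjusted p under 0.05 was found for 2 of the 12, against 30.9% of all genes. The log2 differences of the 12 ran from -0.27 to 0.56. HSPA8, the constitutive HSP70 of the complex, had 11.05, 11.18 and 11.18 in tumor samples and 11.22, 11.38 and 11.62 in normal samples (-0.27 ± 0.13, adjusted p = 0.22). STUB1, the ubiquitin ligase CHIP, differed by -0.04 ± 0.12 (adjusted p = 0.856) and FLNA, the filamin client, by -0.02 ± 0.14 (adjusted p = 0.943). SYNPO2, which ties BAG3 to autophagosome formation, was at 8.56, 8.03 and 7.71 in tumor samples and at 7.28, 7.58 and 7.76 in normal samples (0.56 ± 0.23, adjusted p = 0.137). Its groups overlapped through tumor 3 and normal 3.

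Of 8 kinases that lead to HSPB1 phosphorylation, 2 fell and 0 rose, where 9.44% of all genes fell and 8.56% rose. With array weights 3 fell and 1 rose. MAPKAPK3, one of the kinases that phosphorylate HSPB1, had 6.77, 6.86 and 7.08 in tumor samples and 7.78, 7.76 and 7.50 in normal samples (-0.78 ± 0.14, adjusted p = 0.00774 in limma). MAP2K3, which activates p38, differed by -0.74 ± 0.15 (adjusted p = 0.0137), and its call was lost without tumor replicate 1 or 2 or normal replicate 2 (adjusted p = 0.0509 to 0.0545), which left 1 kinase that fell. MAPKAPK2, or MK2 itself, differed by -0.22 ± 0.11 (adjusted p = 0.24). Transcript levels do not show the phosphorylation state of HSPB1.

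Among 10 filament and cytoskeleton genes whose proteins small heat shock proteins bind or guard, 1 rose and 1 fell, close to the shares of all genes that rose (8.56%) and fell (9.44%). DES, the muscle intermediate filament desmin that CRYAB binds, was at 11.17, 10.93 and 10.26 in tumor samples and at 11.76, 11.95 and 11.94 in normal samples. It fell by 1.10 on the log2 scale (SE 0.22, adjusted p = 0.0137 in limma), a call lost without normal replicate 2 (adjusted p = 0.0549). VIM, vimentin, differed by -0.29 ± 0.11 (adjusted p = 0.117) and was above 11.6 in every sample. GFAP, a glial filament, rose by 0.54 ± 0.14 (adjusted p = 0.036), a call lost without any 1 sample other than normal replicate 1 (adjusted p = 0.0661 to 0.127). Its mean was 4.21 in tumor and 3.67 in normal cells, the latter just above the olfactory receptor level of 3.54. Without normal replicate 1, 2 of the 10 genes fell.

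**Figure D4:**
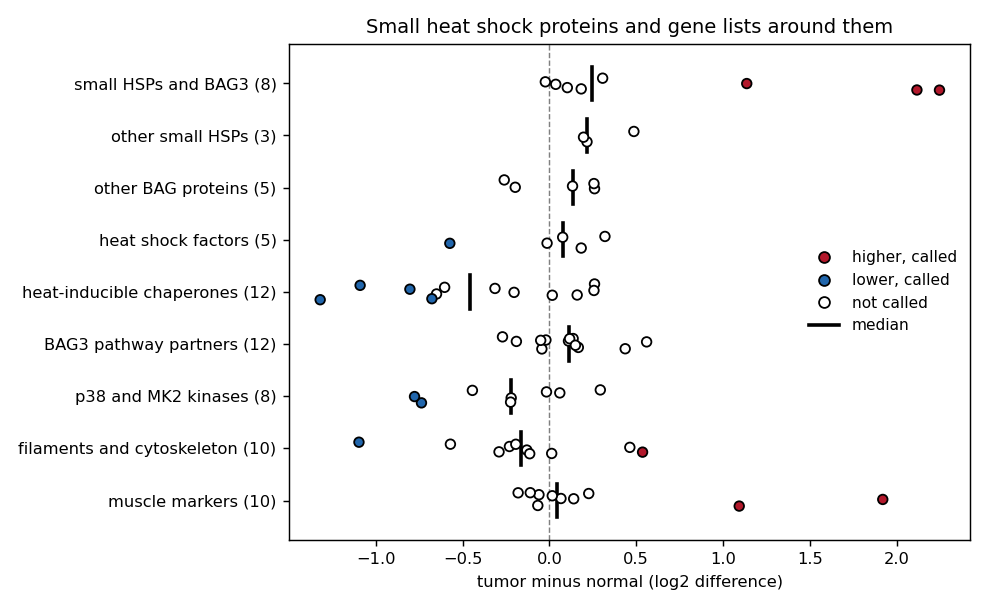
Log2 difference, tumor minus normal, of each measured gene (points) in the small heat shock protein and BAG3 group and in 8 lists around it, with list medians as black bars and the number of genes in brackets; red and blue points passed an adjusted p of 0.05. The 3 red points of the top row are CRYAB, HSPB6 and HSPB8, and 4 of 12 listed heat-inducible chaperones are blue. Of all genes 8.56% passed as higher and 9.44% as lower in tumor cells.

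CRYAB and HSPB6 are also muscle genes, and muscle markers showed no common direction. Of 10 muscle markers, 2 rose and 0 fell, against 8.56% and 9.44% of all genes, with a median log2 difference of 0.04. DES, described above and not in this list, is a muscle gene that fell. The log2 of the summed linear level of the 10 markers was 11.58 to 11.89 in tumor samples and 11.42 to 11.89 in normal samples. TAGLN and CNN1, the highest of the 10, made up most of this sum. It therefore hardly reflects the 2 markers that rose, which were much dimmer. MYH11, smooth muscle myosin, had 6.90, 5.29 and 4.75 in tumor samples and 3.23, 3.98 and 3.97 in normal samples (1.92 ± 0.50, adjusted p = 0.035). LMOD1, an actin nucleator of smooth muscle, was at 7.01, 6.57 and 6.48 in tumor samples and at 5.27, 5.33 and 6.18 in normal samples (1.09 ± 0.26, adjusted p = 0.0247). MYH11 lost its call without tumor replicate 2 or any 1 normal sample (adjusted p = 0.0643 to 0.0866), and LMOD1 without tumor replicate 1 or 2 or normal replicate 1 or 2 (adjusted p = 0.0604 to 0.0929). The number that rose was 0 without tumor replicate 2, normal replicate 1 or normal replicate 2, and 1 without tumor replicate 1 or normal replicate 3. TAGLN, CNN1, SMTN and MYOCD, further smooth muscle genes, did not pass. TAGLN (mean 10.67 in tumor and 10.74 in normal cells) and CNN1 (10.34 and 10.11) were high in both groups. The skeletal muscle genes MYF5, MYOG and CKM were under the olfactory receptor level in both groups, and MYOD1 (3.64 and 3.57) lay just above it. The part of muscle-like cells in the rise of CRYAB and HSPB6 was not tested.

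Of the fibroblast markers, COL1A1, COL1A2, DCN and LUM stood at 11.6 or more in every sample. THY1 had a mean of 9.32 in tumor and 7.98 in normal cells, and S100A4 8.74 and 5.28. The muscle filament DES was also high in the same cells (mean 10.79 in tumor and 11.88 in normal cells). The fibroblast label itself was not tested. For the counts of each cell type here, 8.56% of all genes rose and 9.44% fell, and 30.9% had an unadjusted p under 0.05. Of 9 fibroblast markers 3 rose and 0 fell. Their summed level was 14.69 to 14.77 in tumor samples and 14.48 to 14.61 in normal samples (log2). PDGFRA and COL3A1 lost their call without tumor replicate 1 or 2 (adjusted p = 0.0708 to 0.0815), which left S100A4. Under the olfactory receptor level in both groups lay 3 of 8 leukocyte, 3 of 8 epithelial and 3 of 6 granulosa markers. PTPRC, EPCAM and FSHR were among these. Other markers lay above it, such as CD68 (mean 6.41 in tumor and 5.26 in normal cells) and KRT18 (4.36 and 7.14). FOXL2, a granulosa marker, was above it in normal cells only (mean 5.04). Summed leukocyte markers were at 7.44 to 7.68 in tumor samples and 6.82 to 7.15 in normal samples, and 1 of 8, CD68, rose. Epithelial markers summed to 6.66 to 6.76 in tumor samples and 7.52 to 8.71 in normal samples, and 3 of 8, all keratins, fell. KRT8, 1 of these, lost its call without any 1 sample other than normal replicate 3 (adjusted p = 0.08 to 0.135). Endothelial markers were at 6.47 to 6.64 in tumor samples and 6.37 to 6.56 in normal samples, with 0 of 7 called in limma and 0 with an unadjusted p under 0.05. Granulosa markers summed to 5.97 to 6.20 in tumor samples and 6.52 to 6.63 in normal samples, and 2 of 6 fell, or 1 without tumor replicate 2 or normal replicate 2. AMH, also 1 of the 6, went the other way without passing (log2 difference 0.54 ± 0.16, SE, adjusted p = 0.0569 in limma). It had 4.39, 4.93 and 4.54 in tumor samples and 3.98, 4.24 and 4.02 in normal samples. With the olfactory receptor filter, array weights or the replicate block, 1 granulosa marker was called higher. Pericyte markers reached 6.30 to 7.19 in tumor samples and 6.32 to 6.43 in normal samples, with 2 of 6 higher and 1 lower. Among these ABCC9 lay under the olfactory receptor level in both groups, and each filter on dim probe sets left 1 higher. Of the pericyte markers 0 rose without tumor replicate 2 or normal replicate 2, and 1 rose without tumor replicate 1, normal replicate 1 or normal replicate 3. The part of these cell types in the differences of the small heat shock proteins was not tested.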

How the data were processed

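Total RNA of 6 cultured samples was labelled with biotin for arrays, per the labels' protocols. The deposited log2 expression values were made with RMA, according to the submitters' processing notes. Its version, and the genome build, are not given here. RMA sets arrays to a common distribution, so differences are relative to the other transcripts of a sample. The table held 24415 probe sets with values from 0.40 to 13.37 and sample medians from 4.45 to 4.55. The labels name a kit for 3' labelling, and which part of each transcript was read is unknown.

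Names came from the platform's gene annotation, which may be outdated: 18457 probe sets had 1 symbol, 688 had several and 5270 were unnamed here. Probe sets with several symbols were left out. Entrez identifiers of 17996 matched the RefSeq table of assembly ARS-UCD2.0, used only for names and for gene order. Each of 18010 genes was read from its probe set with the highest mean.

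Groups came from the sample titles. The main test was limma's moderated test (version 3.58.1, R 4.3.3) with group as the only term, two-sided, adjusted by Benjamini-Hochberg over all genes with a threshold of 0.05. The fit was tested on simulated data. There it recovered 12% of changes of 0.5 log2 units, 78% of changes of 1 and 96% of changes of 2. A gene not called here may thus still differ by a small amount. Precision is limited by the number of arrays. No slide or date of scanning was used, and no batch could be examined.

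The members, the gene lists and the tests were chosen with earlier results of these data known. Lists were described by counts and medians, without a test of their own. Named genes were the 8 members, up to 4 called genes of each list by size, 8 genes by name, and the 3 closest profiles of each member that spanned over 1 log2 unit; some are left out, and DNAJB1, MAPKAPK2, CRYAA, several markers and chromosome neighbours were added after their values were seen. Alternatives covered normalization, scaling, filters on dim probe sets, the variance prior, array weights, a replicate block, averaging the probe sets of a gene, and leaving out each sample. No sequences were used here.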

Additional observations from a re-analysis of the deposited data

How the results depend on the processing

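CRYAB, HSPB6 and HSPB8 were called, and called higher in tumor cells, under each of the 15 alternatives, and the other 5 genes under none. Log2 differences ran from 1.98 to 2.44 for CRYAB (adjusted p = 0.000126 to 0.00546 in limma), from 1.92 to 2.26 for HSPB6 (0.000144 to 0.00599) and from 0.97 to 1.25 for HSPB8 (0.00168 to 0.026). HSPB1 ran from 0.05 to 0.17, HSPB2 from 0.07 to 0.47 and BAG3 from 0.07 to 0.28. Differences near 0 changed sign with 1 sample left out, none of them called: HSPB3 ran from -0.14 to 0.042, HSPB7 from -0.03 to 0.15, HSF2 from -0.04 to 0.16, STUB1 from -0.13 to 0.017 and FLNA from -0.12 to 0.085. HSPB3 was removed by both filters on dim probe sets. The excess of CRYAB over HSPB2 ran from 1.80 to 2.16 and that of HSPB8 over BAG3 from 0.86 to 1.07. Genes called over the whole array numbered 3242, 5054 with array weights, which weight normal sample 2 most, and 1765 to 3226 with 1 sample left out (lowest without normal replicate 2; tumor replicate 2 gave 1887 when left out and tumor replicate 1 gave 1968); the cause was not tested. VIM passed with a mean-variance trend (adjusted p = 0.0369). With the replicate block 2895 genes and the same 3 of the 8 genes were called, and GFAP, BFSP1, KRT8 and MYH11 were not (adjusted p = 0.0588, 0.0598, 0.061 and 0.0679). Same-numbered samples did not deviate together over all genes (correlations of 0.05, -0.08 and 0.07), and the labels state no pairing. CRYAB, HSPB8 and HSPB6 each kept the same order of replicate numbers in both groups. With 3 samples a group these correlations cannot decide whether the numbers pair the samples. The number of arrays, 3 a group, limits which small differences can pass.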

Other observations

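CRYAB is also a crystallin, and the other lens genes measured did not move as one. Of 5, 1 rose and 1 fell, against 8.56% and 9.44% of all genes. CRYBB1, a beta crystallin unrelated to the small heat shock proteins, was at 6.74, 6.36 and 6.47 in tumor samples and at 4.54, 4.92 and 4.61 in normal samples. It rose by 1.83 ± 0.15 on the log2 scale (SE; adjusted p = 0.000372 in limma), 3.56-fold, with all tumor samples above all normal samples. BFSP1, a lens filament protein, differed by -0.61 ± 0.15 (adjusted p = 0.029), a call lost without tumor replicate 1 or 2 or normal replicate 1 or 2 (adjusted p = 0.0533 to 0.105) and with the replicate block (0.0598). Its tumor mean lay under the olfactory receptor level, so the size of its difference is not exact. CRYBA1 and CRYGS did not pass, and both lay under that level in both groups.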
